A study of Mus musculus with 16 samples.

Results

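Sln, Pln, Atp2a2, Casq2 and Hrc, 5 genes by which the sarcoplasmic reticulum of heart muscle stores and pumps calcium, were followed across the 6 cell groups of the series. They were named as a set by that function and are 5 of the 17710 genes that the arrays could name, read by 7 of the 20339 probes of those genes. Atp2a2 had 3 probes and each of the others had 1. The series set cardiac progenitor populations beside bone marrow populations and cardiomyocytes, all from C57BL/6 mice whose genotype was labelled Normal. The heart gave c-kit+ cells sorted by flow cytometry (3 arrays), Sca1+CD45-CD31- cells sorted in the same way (3 arrays) and side population (SP) cells, taken by their efflux of a Hoechst dye (2 arrays). The marrow gave sorted c-kit+ cells (3 arrays) and mesenchymal stem cells (MSC) harvested after 5 passages (3 arrays). Cardiomyocytes, spun down at 100 rpm for 1 min, were the control (2 arrays). No group carried a named treatment or a transgene, and 1 growth protocol, with Matrigel-coated dishes and mTeSR medium, was entered for every sample. The sources used here give no age, sort purity or number of animals behind an array. Nothing in the labels says that replicates came from separate animals, so p-values measure only how far these arrays scatter, which may be technical.

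With each beat, calcium that enters a heart muscle cell through channels of the surface membrane opens release channels of the sarcoplasmic reticulum, and the calcium so released sets off contraction. Relaxation follows when the calcium pump of the reticulum, SERCA2, the product of Atp2a2, takes the calcium back up. The small membrane proteins phospholamban (Pln) and sarcolipin (Sln) bind the pump and slow it, sarcolipin mainly in the atria of the mouse heart. Inside the reticulum, calsequestrin 2 (Casq2) and the histidine-rich calcium-binding protein (Hrc) hold the stored calcium. Atp2a2 is also made in most other cell types, where the pump fills the general endoplasmic reticulum with calcium.

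All 5 genes were highest in cardiomyocytes. In each of them both cardiomyocyte arrays lay above all 14 progenitor arrays, a pattern that 2.09% of all genes showed. This separation depended on how the arrays were scaled. It held for all 5 genes after quantile normalisation, the scaling used throughout. With array medians aligned instead it held for 2 of 5, Sln and Hrc, and for 83 of all 17710 genes. In the deposited values it held for 3 of 5, Sln, Pln and Hrc, and for 173 of all genes. The difference from cardiomyocytes stayed negative in each of the 5 populations under every scaling, filter and fit that was run, except by 1 further probe of Atp2a2 in SP cells, described with that gene. Its size did not always hold: with array medians aligned, Casq2 was -0.43 in SP cells and -0.65 in heart c-kit cells (-3.19 and -2.61 as reported), and Atp2a2 was -0.52 in SP cells and -0.32 in Sca1 cells (-3.55 and -2.00). Of the 25 combinations of a gene and a progenitor population, 13 were called lower than cardiomyocytes, a call being a Benjamini-Hochberg adjusted p under 0.05 over all genes in limma. The share of all genes called lower ran from 0% in Sca1 cells to 7.43% in marrow c-kit cells. The 5 comparisons share the same 2 cardiomyocyte arrays, and the small number of arrays limits their precision. Where leaving out an array leaves 1 in SP cells or cardiomyocytes, the fit takes the spread from the other groups and assumes that the lone array varies as they do. In RNA from bulk samples, fewer cells of a type and less RNA per cell cannot be told apart.

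The arrays separated the groups by cell type only in part. Of 20 cardiomyocyte markers, 14 were measured, and their mean normalised log2 level was 4.98 and 5.07 on the cardiomyocyte arrays, from 0.84 to 2.00 on the heart c-kit and Sca1 arrays and from -1.77 to 0.50 on the SP and marrow arrays. The cardiomyocyte arrays also carried endothelial markers (14 of 14 measured, mean level 5.75 and 6.16), fibroblast markers (9 of 10 measured, 3.94 and 4.95) and macrophage markers (11 of 12 measured, 2.85 and 3.87). Atrial markers (6 of 8 measured) stood at 4.38 and 4.80 there. Ventricular markers (4 of 7 measured) stood at 1.47 and 1.52 there, within the ranges of heart c-kit cells (0.85 to 3.26) and MSC (1.27 to 1.98). Smooth muscle and pericyte markers (8 of 10 measured) stood at 4.57 and 4.69, and skeletal muscle markers (7 of 10 measured) at -1.53 and -0.78. The 3 arrays labelled marrow MSC had the highest macrophage level, 6.10 to 6.59, beside a fibroblast level of 1.84 to 2.66. Both SP arrays and heart c-kit replicate 2 were dim, with a median spot intensity of 15 to 22 against up to 200 elsewhere. Spot intensities were calculated back from the deposited log2 values, as described under the processing.

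**Figure D1:**
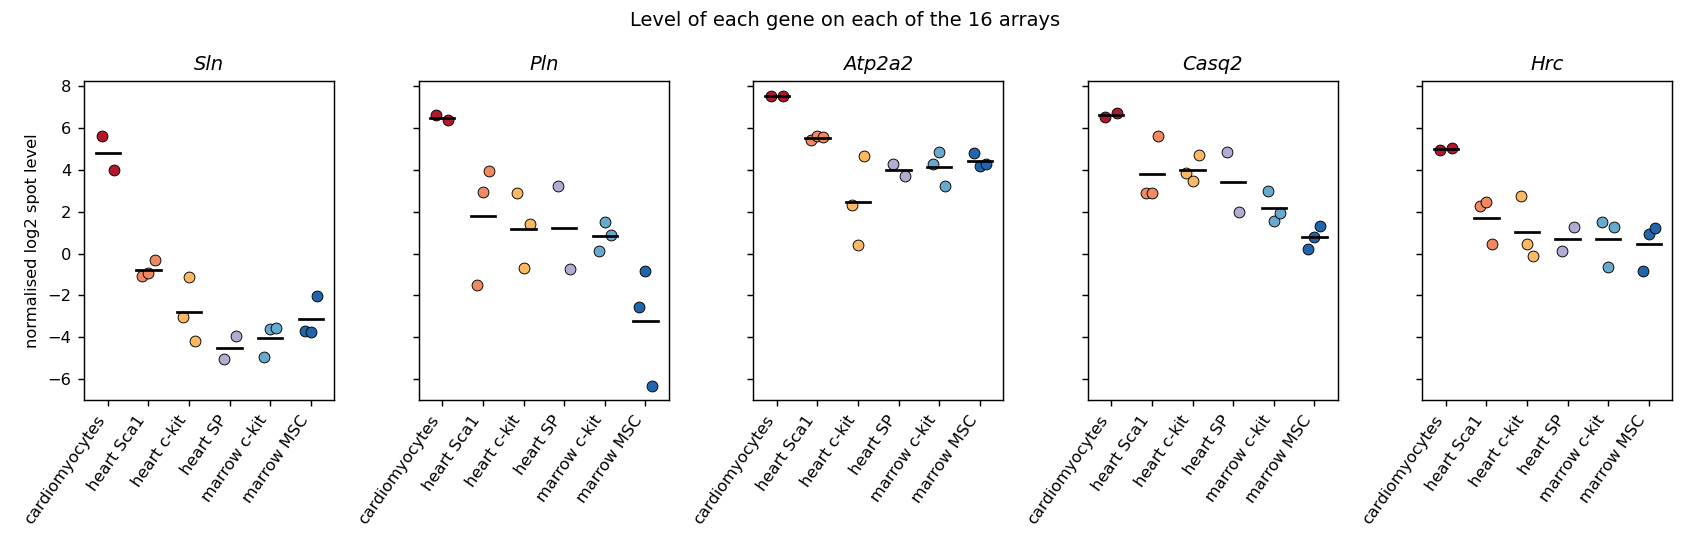
Normalised log2 spot level (vertical axis) of the 5 genes on each of the 16 arrays, by cell group (horizontal axis). Each point is 1 array and each bar the mean of its group. The 2 cardiomyocyte arrays stand above the other 14 in every panel, by the widest gap in Sln, where they read 4.02 and 5.62 and no progenitor array exceeds -0.31.

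The promoters of Casq2 and Pln are shown because these were the members whose levels ran together most closely over the arrays, also among progenitors alone. Each runs from 250 bases before the annotated start site to 50 after it, from the RefSeq table of build GRCm38.p6, which held 3 of the 5 genes (Casq2, Pln and Hrc). Capitals mark matches to the motifs searched, other than E-boxes. The Casq2 window lies on the plus strand at chr3:102086165-102086464 and the Pln window on the plus strand at chr10:53337436-53337735.
Casq2: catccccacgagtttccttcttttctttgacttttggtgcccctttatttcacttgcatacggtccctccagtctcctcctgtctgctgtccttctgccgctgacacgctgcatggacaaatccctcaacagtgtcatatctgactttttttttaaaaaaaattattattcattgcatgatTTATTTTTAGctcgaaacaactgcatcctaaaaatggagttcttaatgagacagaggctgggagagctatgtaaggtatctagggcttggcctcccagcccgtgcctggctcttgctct
Pln: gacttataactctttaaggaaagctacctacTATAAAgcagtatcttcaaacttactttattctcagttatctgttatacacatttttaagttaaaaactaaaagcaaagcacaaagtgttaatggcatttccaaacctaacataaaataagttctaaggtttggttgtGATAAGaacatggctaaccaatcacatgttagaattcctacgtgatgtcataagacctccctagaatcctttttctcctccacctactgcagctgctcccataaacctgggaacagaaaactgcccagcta
Both strands were searched for the E-box CANNTG, the TATA box TATAAA, the GATA site GATAAG, the M-CAT element CATTCC, the MEF2 site and the CArG box. Casq2 held 1 MEF2 match, starting at position -69 from the start site, a motif found in 3.19% of all 32851 promoters in the table. Pln held no MEF2 match but 1 TATA box at -219 (in 13.6% of promoters) and 1 GATA site at -81 (in 7.44%). Each held 2 E-boxes, and Hrc held 1 E-box and none of the other motifs, where 72.3% of promoters hold an E-box. None of these 3 promoters held an M-CAT element (14.7% of promoters) or a CArG box (1.63%). A match only says that these letters occur, not that a factor binds there.

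Sln, which slows the pump and is best known from atrial and slow skeletal muscle, showed the lowest differences from cardiomyocytes in 4 of the 5 populations, with Pln lower in MSC. Its normalised log2 level was 5.62 and 4.02 in cardiomyocytes, at the 93.2 and 83.8 percentiles of all probes on those arrays. In heart Sca1 cells it was -1.10, -0.94 and -0.31. The heart c-kit arrays read -3.05, -1.12 and -4.17. No progenitor array came near the cardiomyocytes, and the Sca1 arrays were the highest of the progenitors. In SP cells Sln was -5.06, which is the normalised form of the repeated fill value of that array, and -3.97. Marrow c-kit cells read -4.93, -3.61 and -3.56. In MSC it was -3.70, -3.75 and -2.04. All progenitor arrays read Sln between the 9.97 and 47.9 percentiles, with spot intensities of 1 to 93 against 1162 and 2050 in cardiomyocytes, so that much of the progenitor range lies near the dimmest spots. No flag for spots above background was used here, so levels this low have no sure order and the sizes of the differences below depend on the bottom of the scale.

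Against cardiomyocytes, Sln fell in SP cells, with a fitted difference of -9.33 ± 0.99 (SE, log2; adjusted p = 0.000229 in limma). It also fell in marrow c-kit cells (-8.85 ± 0.90, adjusted p = 1.91e-05), MSC (-7.98 ± 0.90, 0.000209) and heart c-kit cells (-7.60 ± 0.90, 0.000488). With values under the 30th percentile of the arrays raised to it, these 4 differences were -7.13, -7.13, -7.04 and -6.73 and all were called. In Sca1 cells the difference of -5.60 ± 0.90 did not pass (adjusted p = 0.0826), and 2 of 24 alternatives called it. These were leaving out Sca1 replicate 3 (0.0174) and raising the low values (-5.60, 0.00019). Pooled over the 3 cardiac populations, Sln fell by 7.51 ± 0.79 (adjusted p = 0.00174), with a difference of -6.49 when low values were raised. That pooled call was lost without cardiomyocyte replicate 1 (adjusted p = 0.0949), with array medians aligned (0.0882) and when only the groups compared were fitted (0.0902). Fitting only those groups also ended the calls in heart c-kit cells (0.0973) and SP cells (0.153). The calls in marrow c-kit cells and MSC were kept in 24 of 24 alternatives. Atrial markers stood at 4.38 to 4.80 in cardiomyocytes, 2.40 to 2.55 in SP cells and 0.28 to 2.81 in Sca1 cells. They stood at -0.02 to 0.61 in MSC, -1.22 to -0.28 in heart c-kit cells and -1.45 to -0.32 in marrow c-kit cells. The part of atrial cells in the Sln difference was not tested.

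Among progenitors, Sln in Sca1 cells (mean -0.78 ± 0.42, SD, n = 3) exceeded marrow c-kit cells (-4.04 ± 0.78, n = 3) by 3.25 ± 0.81 (SE; adjusted p = 0.0121 in limma). It exceeded SP cells (-4.51 ± 0.77, n = 2) by 3.73 ± 0.90 (adjusted p = 0.0263). The 3 Sca1 arrays also lay above all 3 heart c-kit arrays, the population next in order, but barely (-1.10 against -1.12 at the nearest). That difference was not called (adjusted p = 0.13). Both calls rest on dim spots. With low values raised, the difference from marrow c-kit cells was 1.53 and still called (adjusted p = 0.0211), and that from SP cells was 1.53 and not called (0.0608). The latter was also lost without SP replicate 1 (0.12) or any 1 Sca1 array (0.0573 to 0.0888). The difference from marrow c-kit cells was lost without Sca1 replicate 3 (adjusted p = 0.0517) or without marrow c-kit replicate 1 (0.0595). Heart c-kit cells, MSC, marrow c-kit cells and SP cells overlapped with their neighbours in that order.

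Pln encodes phospholamban, whose brake on the pump is lifted when it is phosphorylated. Its level was 6.63 and 6.40 in cardiomyocytes. In Sca1 cells it was -1.49, 2.93 and 3.97. Heart c-kit cells read 2.89, -0.71 and 1.39. SP cells read 3.22 and -0.75, so replicates differed by more than 3 log2 units in each cardiac population. The marrow c-kit arrays read Pln at 0.10, 1.53 and 0.91. In MSC it was -2.56, -0.85 and -6.33. MSC were the lowest group, each of their arrays lying below all marrow c-kit arrays.

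Pln fell by 9.76 ± 1.76 (SE, log2) in MSC against cardiomyocytes (adjusted p = 0.0042 in limma), and this call was kept in 25 of 25 alternatives. The size depends on the bottom of the scale, as the MSC arrays read spot intensities of 10, 108 and 1. With values under the 30th percentile raised to it, the difference was -8.34 and still called (adjusted p = 0.00651). In marrow c-kit cells the difference was -5.67 ± 1.76, just short of a call (adjusted p = 0.0508), and 12 of 25 alternatives called it. The differences in heart c-kit cells (-5.32 ± 1.76, adjusted p = 0.128), SP cells (-5.28 ± 1.93, 0.13) and Sca1 cells (-4.71 ± 1.76, 0.323) did not pass, and no alternative called them. The standard errors of Pln, 1.76 and 1.93, were the largest of the 5 genes. The 95% interval in heart c-kit cells ran from -9.11 to -1.54. Between MSC and the other progenitors no difference in Pln was called.

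Atp2a2 encodes the pump itself. The probe with the highest mean of its 3 was used, and it read 7.54 and 7.56 in cardiomyocytes. In Sca1 cells it read 5.45, 5.61 and 5.59, the tightest progenitor group of any member. In MSC it read 4.83, 4.17 and 4.31. The marrow c-kit arrays read 4.31, 4.88 and 3.24. By this probe every Sca1 array thus lay above every MSC and marrow c-kit array. Neither difference was called (adjusted p = 0.509 against MSC and 0.308 against marrow c-kit cells in limma). By another probe, PH_mM_0016288, the marrow c-kit arrays read 4.37 to 4.91 and the Sca1 arrays 3.27 to 4.64, so these groups overlapped with marrow c-kit cells higher by mean. In SP cells the probe used read 4.30 and 3.70. Heart c-kit cells read 2.31, 0.39 and 4.65, the lowest mean (2.45 ± 2.13, SD, n = 3) and the widest spread, with the low value on the dim replicate 2.

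By this probe, Atp2a2 fell against cardiomyocytes in heart c-kit cells (-5.10 ± 0.93, SE, log2; adjusted p = 0.0077 in limma) and marrow c-kit cells (-3.41 ± 0.93, 0.0268). The differences in SP cells (-3.55 ± 1.02, adjusted p = 0.0593), MSC (-3.12 ± 0.93, 0.0568) and Sca1 cells (-2.00 ± 0.93, 0.428) did not pass. The SP and MSC differences passed without heart c-kit replicate 2 (0.0172 and 0.0145) or 3 (0.0145 and 0.0111). Heart c-kit cells were also lower than Sca1 cells by this probe, at -3.10 ± 0.83 (adjusted p = 0.0281). Without either cardiomyocyte array the heart c-kit call against cardiomyocytes was lost (adjusted p = 0.0631 without replicate 1 and 0.0756 without replicate 2), and so was the marrow c-kit call (0.138 and 0.122), which was also lost without marrow c-kit replicate 1 (0.0586) or 3 (0.105). The difference between heart c-kit and Sca1 cells was lost without heart c-kit replicate 1 (0.0642) or 2 (-2.02, 0.0907) or without any 1 Sca1 array (0.0733 to 0.0778).

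The other probes of Atp2a2 did not repeat the size of this difference. In heart c-kit cells against cardiomyocytes, with p-values adjusted over all probes in limma, the probe used (mMR030883) gave -5.10 (adjusted p = 0.00934), PH_mM_0016288 gave -2.29 (0.156) and PH_mM_0007334 gave -1.84 (0.557). In SP cells PH_mM_0007334 turned the sign, at 0.72 (adjusted p = 0.812) where the probe used gave -3.55 (0.0682). By PH_mM_0007334 the SP arrays read 3.57 and 4.88 and the cardiomyocyte arrays 3.32 and 3.69, so these groups overlapped. In marrow c-kit cells PH_mM_0016288 gave -0.64 (adjusted p = 0.781) where the probe used gave -3.41 (0.0343). MSC were the exception, with -3.12, -2.75 and -2.66 by the 3 probes, none of them called. Between heart c-kit and Sca1 cells the probe used gave -3.10 (adjusted p = 0.0342), PH_mM_0007334 -1.27 (0.487) and PH_mM_0016288 -1.02 (0.365). With the mean over probes in place of 1 probe, the heart c-kit difference was -3.08 (adjusted p = 0.0264), the marrow c-kit difference was -1.83 and no longer called (0.118), and the MSC difference of -2.84 was called (0.0235), while heart c-kit cells differed from Sca1 cells by -1.80, not called (0.0828). With array medians aligned and in the deposited values the probe used lost its calls in heart c-kit cells (0.193 and 0.134) and marrow c-kit cells (0.345 and 0.313). Which transcripts each probe matches was not analysed here.

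**Figure D2:**
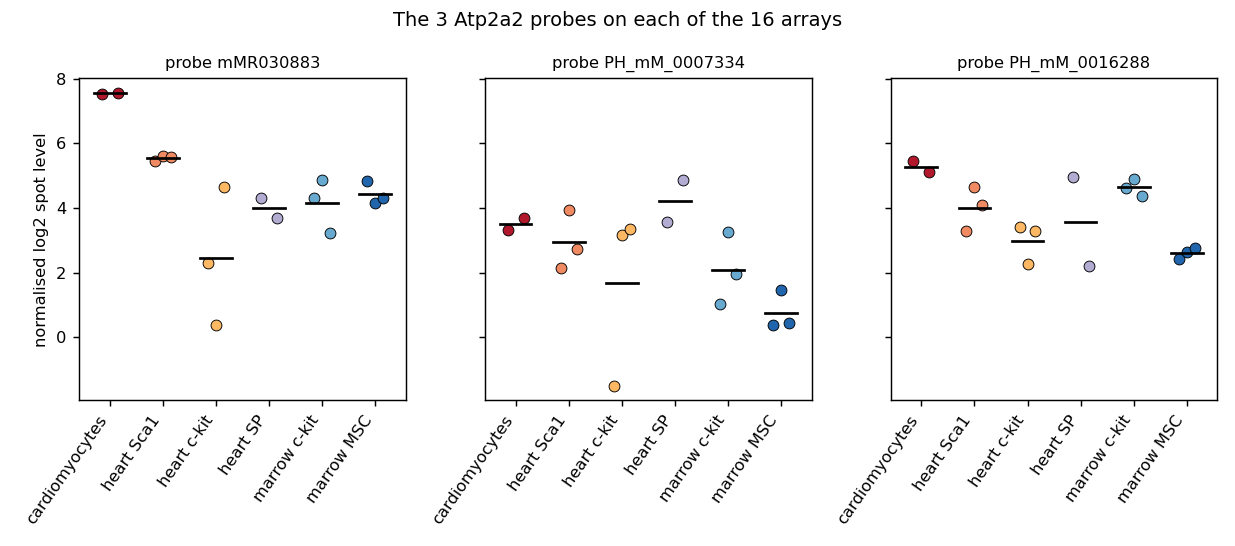
Normalised log2 spot level (vertical axis) of the 3 Atp2a2 probes, one per panel, on the 16 arrays by cell group. Points are arrays and bars group means; levels are comparable within a panel, not between panels. Probe mMR030883 sets cardiomyocytes (7.54 and 7.56) above every other array, while by PH_mM_0007334 they lie within the range of SP and Sca1 cells.

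Casq2 encodes the main calcium store protein of the heart muscle reticulum. It read 6.54 and 6.70 in cardiomyocytes. Heart c-kit cells read 3.87, 3.45 and 4.74. In Sca1 cells it read 2.92, 2.89 and 5.64. In SP cells it read 4.88 and 2.00. The cardiac populations overlapped, and 1 Sca1 array came within 1 log2 unit of the cardiomyocytes. In marrow c-kit cells Casq2 read 3.00, 1.55 and 1.92. In MSC it read 0.23, 0.79 and 1.32, below all marrow c-kit arrays.

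Casq2 fell against cardiomyocytes in MSC (-5.85 ± 0.96, SE, log2; adjusted p = 0.00236 in limma) and marrow c-kit cells (-4.47 ± 0.96, 0.00659). In the cardiac populations the differences were -2.61 ± 0.96 in c-kit cells (adjusted p = 0.177), -2.81 ± 0.96 in Sca1 cells (0.27) and -3.19 ± 1.05 in SP cells (0.0936), none of them called. Without SP replicate 1 the SP difference was -4.54 and passed (0.029), and without cardiomyocyte replicate 2 the marrow c-kit call was lost (0.0546). The marrow c-kit call was also lost with array medians aligned (0.15) and in the deposited values (0.115), and the MSC call with medians aligned (0.0629). Casq2 was the only one of the 5 genes called between cardiac and marrow progenitors, with the cardiac populations higher by 2.29 ± 0.57 (adjusted p = 0.0109). In that comparison 1 of 5 members, against 9.12% of all genes, was called higher in the cardiac populations. The call was kept in 25 of 25 alternatives, although the arrays of the pooled groups overlapped. Against marrow c-kit cells alone, no cardiac population was called. The adjusted p in limma was 0.212 in heart c-kit cells, 0.237 in Sca1 cells and 0.391 in SP cells. Heart c-kit cells exceeded MSC by 3.24 ± 0.86 (adjusted p = 0.0249) and Sca1 cells exceeded MSC by 3.04 ± 0.86 (0.037). Without Sca1 replicate 3 the latter was 2.13 with an adjusted p of 0.163, and without any 1 MSC array its adjusted p was 0.0671 to 0.136. The former was lost without any 1 MSC array (0.0511 to 0.102) and without heart c-kit replicate 3 (0.0635). With array medians aligned both were lost (0.0543 for heart c-kit cells and 0.106 for Sca1 cells). The same held in the deposited values (0.0811 and 0.0893).

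Endothelial markers moved with part of the Casq2 pattern. Their mean level was 4.47 to 5.02 in heart c-kit cells and from -1.32 to 0.21 on the marrow arrays. Among Sca1 arrays it was 0.50 and 1.43 on replicates 1 and 2 and 4.66 on replicate 3, the array on which Casq2 read 5.64. That array also carried the highest Pln (3.97) and Sln (-0.31) of its group but the lowest Hrc (0.44). The SP arrays, with endothelial levels of 0.35 and 0.55, read Casq2 at 4.88 and 2.00. The Sca1 cells were sorted as CD31-, a gate meant to remove endothelial cells. Macrophage markers (2.76 against -0.97 and -0.44) and smooth muscle and pericyte markers (3.50 against 1.82 and 2.08) were also highest on Sca1 replicate 3. The part of these cell types in the Casq2 levels was not tested.

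**Figure D3:**
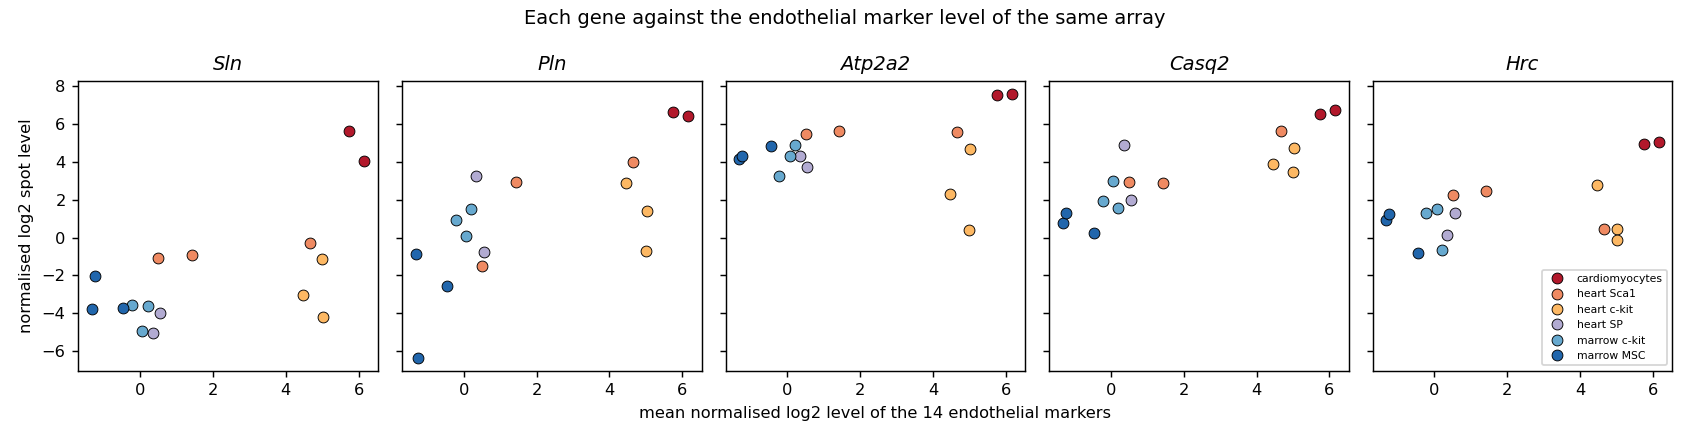
Normalised log2 spot level of each gene (vertical axis) against the mean level of 14 endothelial markers on the same array (horizontal axis, log2); points are the 16 arrays, coloured by cell group. For Casq2 the marrow arrays lie low on both axes and Sca1 replicate 3 (4.66 on the horizontal axis, 5.64 on the vertical) lies apart from replicates 1 and 2; for Sln the heart c-kit arrays stay low at endothelial levels of 4.47 to 5.02.

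Hrc, which binds calcium in the reticulum and also interacts with its pump and its release complex, read 4.96 and 5.06 in cardiomyocytes. In Sca1 cells it read 2.25, 2.47 and 0.44. In heart c-kit cells it read 2.75, 0.43 and -0.10. In SP cells it read 0.14 and 1.28. The cardiac progenitors spanned less than 3 log2 units and overlapped throughout. Marrow c-kit cells read Hrc at 1.49, -0.65 and 1.28. In MSC it read -0.81, 0.94 and 1.22. No neighbours in the order of progenitor means separated, and no pair of progenitor populations differed in Hrc at the threshold.

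Hrc fell against cardiomyocytes in 4 populations: MSC (-4.56 ± 1.00, SE, log2; adjusted p = 0.0122 in limma), marrow c-kit cells (-4.30 ± 1.00, 0.0107), SP cells (-4.30 ± 1.09, 0.0375) and heart c-kit cells (-3.98 ± 1.00, 0.0413). In Sca1 cells the difference was -3.29 ± 1.00 (adjusted p = 0.212). The heart c-kit and SP calls were the least stable. Of 25 alternatives, 10 kept the heart c-kit call and 15 the SP call, with adjusted p-values from 0.0121 to 0.293 and from 0.0199 to 0.297. Leaving out either cardiomyocyte array ended both, at 0.17 and 0.211 in heart c-kit cells and 0.126 and 0.135 in SP cells, and also ended the calls in marrow c-kit cells (0.0696 and 0.0713) and MSC (0.0918 and 0.0644). The MSC call was lost without MSC replicate 1 as well (0.0551). With the replicate number as a block, the calls in heart c-kit cells (adjusted p = 0.0876) and SP cells (0.0587) were lost. With array medians aligned, no Hrc call was kept (0.0815 to 0.175).

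Counted by population, 4 of the 5 genes were called lower in marrow c-kit cells, where 7.43% of all genes were called lower. In MSC it was also 4 of 5, against 3.94% of all genes. In heart c-kit cells it was 3 of 5, against 2.59%, and in SP cells 2 of 5, against 3.29%. In Sca1 cells limma called 0 of 5, where it called 0% of all genes lower. At an unadjusted p under 0.05, 4 of the 5 members and 2067 of all genes passed in Sca1 cells. Pooled over the cardiac populations, 1 of 5 was called, against 0.542%. The members' median log2 difference from cardiomyocytes was -5.85 in MSC, -5.10 in heart c-kit cells, -4.47 in c-kit cells of the marrow, -4.30 in SP cells and -3.29 in Sca1 cells, where the medians of all genes lay between 0.06 and 0.14. Whether the difference from cardiomyocytes was larger in one population than in another was tested directly between the populations, where 5 of 50 combinations of a gene and a pair were called, against 12.9% of all such combinations over all genes. These 5 are the differences given above for Sln (2), Casq2 (2) and Atp2a2 (1).

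**Figure D4:**
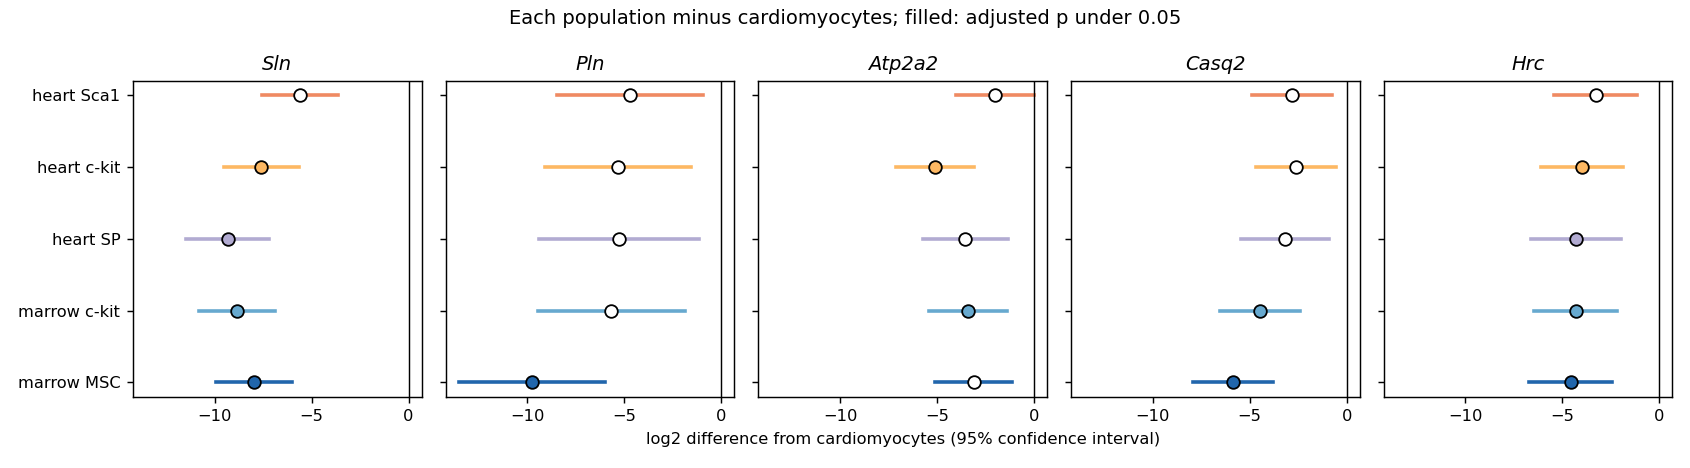
Log2 difference of each progenitor population from cardiomyocytes (horizontal axis) for the 5 genes, with 95% confidence intervals from limma as lines; filled points have an adjusted p under 0.05 over all genes. All 25 points lie below 0, from -9.76 for Pln in MSC to -2.00 for Atp2a2 in Sca1 cells, and the 5 Sca1 points are all open.

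The counts moved with scaling and with single arrays. With array medians aligned, marrow c-kit cells had 1 call of 5, heart c-kit cells 1, SP cells 1 and MSC 2. Of all 17710 genes, 928, 148, 2619 and 749 were called there in either direction, in the same order. Leaving out either cardiomyocyte array also lowered the counts in marrow c-kit, heart c-kit and SP cells, and in MSC, where the Hrc call was lost.

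The members did not follow one another closely apart from the contrast with cardiomyocytes. Over all 16 arrays, Pearson's r between members ran from 0.428 (Atp2a2 with Casq2) to 0.814 (Pln with Casq2), the points being whole arrays that share their scaling and include both cardiomyocyte arrays. Over the 14 progenitor arrays alone, r was 0.68 for Pln with Casq2 and 0.315 for Sln with Hrc. The other 8 pairs lay between -0.0752 and 0.190 there. The pump, Atp2a2, ran with none of the other 4 among progenitors.

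The genes whose levels were most like each member's over the 16 arrays were named by the 5 highest Pearson correlations. For Sln they were Tnni3, cardiac troponin I (r = 0.887), Hspa12b (0.872), Nppa, the atrial natriuretic peptide (0.869), Fndc5 (0.865) and Car4 (0.863). For Pln they were Gkn3 (0.898), Rbm24, a muscle splicing factor (0.859), Arf4 (0.857), the potassium channel gene Kcna5 (0.836) and Nrip2 (0.836). For Atp2a2 they were Itpr1, a calcium release channel of the endoplasmic reticulum (0.880), Rock1 (0.846), Kif1b (0.845), Pfn3 (0.843) and Prkg1 (0.830). For Casq2 they were Gpihbp1, which holds lipoprotein lipase on capillary endothelium (0.917), Thrsp (0.907), Higd1b (0.899), Cd300lg (0.891) and Ptprb, a phosphatase of endothelial cells (0.884). For Hrc they were Fndc5 (0.873), Dock6 (0.853), Ldb3, a Z-disc protein gene (0.844), Gja5, the connexin gene of atrial muscle and arterial endothelium (0.840), and Tppp (0.830). These are descriptions across arrays that share groups, with no test.

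Other genes of calcium handling were taken from 4 lists with 73 measured genes. Of these, 7 (9.59%) were called lower in heart c-kit cells, against 2.59% of all genes, 6 (8.22%) in marrow c-kit cells, against 7.43%, and 6 (8.22%) in MSC, against 3.94%. Of 21 genes for uptake into the reticulum and its regulation, 19 were measured. Of these, 1 was called lower in heart c-kit cells, 1 in MSC and 0 in the other populations, and list medians against cardiomyocytes lay between -0.43 and 0.21. The gene called in heart c-kit cells was Atp2a3, which encodes the SERCA3 pump of blood and other non-muscle cells. It fell there (-8.15 ± 0.82, SE, log2; adjusted p = 0.000161 in limma), from 7.02 ± 0.26 in cardiomyocytes (SD, n = 2) to -1.13 ± 1.53 (n = 3). The other populations kept levels from 5.41 in Sca1 cells to 7.92 in marrow c-kit cells, and heart c-kit cells had the lowest mean. They were also lowest for Atp2a2 by the probe used, whereas by its 2 other probes MSC were lowest (0.75 against 1.67 and 2.62 against 2.99). Through these arrays Atp2a3 was also called lower in the pooled cardiac comparison (-3.45 ± 0.71, adjusted p = 0.0462), although the pooled arrays overlap with cardiomyocytes. Camk2d, a calcium-dependent kinase that acts on phospholamban and the release channel, fell by 3.58 in MSC (adjusted p = 0.0217). The other largest pooled cardiac differences of the list were not called, with S100a1 at -2.14 (adjusted p = 0.252), Ppp1r3a at -1.94 (0.469) and Hax1 at 2.01 (0.327).

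Of 23 genes for calcium release and its junction with the surface membrane, 19 were measured; the ryanodine receptor genes were not analysed here. In heart c-kit cells 2 of 19 were called lower, Asph, the gene of junctin and junctate (-3.33, adjusted p = 0.00295 in limma), and Itpr1 (-2.90, 0.0412). Asph also fell in marrow c-kit cells, by 2.01 (adjusted p = 0.0194), the 1 call there. Its mean level in SP cells (5.31) and Sca1 cells (5.07) was close to that in cardiomyocytes (5.28). Asph had 4 probes, of which the one with the highest mean was used, and which of its transcripts that probe matches was not analysed. MSC had 1 lower call, Srl, the sarcalumenin gene (fell by 4.43, adjusted p = 0.0439), and 2 higher calls. These were Jsrp1, a junctional protein gene, at 3.85 (adjusted p = 0.00682), and Bin1, which shapes the transverse tubules, at 3.07 (0.00762). In MSC 3.93% of all genes were called higher and 3.94% lower. The shares called lower were 2.59% in heart c-kit cells and 7.43% in marrow c-kit cells. List medians lay between -1.22 and 0.18. Fkbp1b, which binds the release channel, had a pooled cardiac difference of -2.98 (adjusted p = 0.423), Speg -2.56 (0.38), Jph2, which tethers the junction, -2.39 (0.496) and Sri -2.29 (0.489).

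Of 21 genes for calcium entry and removal at the surface membrane, 19 were measured, with list medians between -1.88 and -0.34. Of the 19, 3 were called lower in heart c-kit cells, 3 in MSC and 4 in c-kit cells of the marrow. The shares of all genes called lower in these populations were 2.59%, 3.94% and 7.43%. Atp2b4, a surface calcium pump gene, was called in all 3, at -3.69 in heart c-kit cells (adjusted p = 0.0118 in limma), -4.26 in MSC (0.00304) and -3.03 in c-kit cells of the marrow (0.0132). Gem, a small GTPase that inhibits calcium channels, was also called in all 3, at -3.20 (0.0405), -4.60 (0.00325) and -6.72 (6.74e-05) in the same order. Cacna2d1, a channel subunit gene, fell by 4.49 in heart c-kit cells (adjusted p = 0.0385) and by 7.07 in marrow c-kit cells (0.000673). Cacnb3 fell by 4.88 in marrow c-kit cells (0.0396) and Cacna1h by 3.81 in MSC (0.045). There was 1 higher call in marrow c-kit cells, where 4.99% of all genes were called higher, namely the channel gene Cacna1d at 4.02 (adjusted p = 0.00901). MSC, where 3.93% of all genes were called higher, also had 1, Orai2, a store-operated channel gene, at 5.09 (0.0135). Gem was higher by mean in SP cells (7.73) and Sca1 cells (6.76) than in cardiomyocytes (5.58), the reverse of the 5 members. The list's largest pooled cardiac differences were not called, with Atp2b2 at -3.16 (adjusted p = 0.22), Slc8a1, the sodium-calcium exchanger, at -3.11 (0.297), Cacna1h at -2.60 (0.27) and Orai2 at 2.41 (0.339).

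Of 17 calcium-binding proteins of the general endoplasmic reticulum, which muscle shares with other cells, 16 were measured, and list medians lay between -0.26 and 0.41. Rcn3 fell by 4.29 in heart c-kit cells (adjusted p = 0.0214 in limma) and by 5.52 in marrow c-kit cells (0.00139), each the 1 lower call of its population. Sdf4 fell by 4.04 in MSC (adjusted p = 0.0195), and Nucb1 was higher by 2.30 in marrow c-kit cells (0.0242). The largest pooled cardiac differences were not called, at 1.44 for Pdia3 (adjusted p = 0.644), 1.05 for Rcn1 (0.859), -0.74 for Hsp90b1 (0.662) and -0.72 for Rcn3 (0.789). In Sca1 and SP cells limma called none of the 73 genes measured in these 4 lists in either direction, and 8 (11.0%) and 9 (12.3%) of them had an unadjusted p under 0.05, against 11.7% and 21.2% of all genes.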

How the data were processed

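Per the labels, total RNA of 16 samples was amplified (WT-Ovation Pico kit) and given a Cy5 label, and only the Cy5 channel of the 2-colour arrays was used. The deposited values are log2 spot intensities that the authors centred on the mean of each array, as read from the values (15 of 16 means lie within 0.001 of 0). From 3.38% to 13.8% of an array's probes carry 1 repeated fill value. The sources used here give neither the background correction nor the fill rule. Spot intensities in the text were calculated back from the deposited log2 values, as multiples of the dimmest spot of each array that did not carry the fill value. The 26423 probes were quantile normalised, since array medians spread over 1.45 log2 units (rule: above 0.5). Of the probes, 20377 had a symbol, 6046 had none and 38 could not be matched to 1 gene; 17710 genes remained, each by its probe with the highest mean. One limma fit (version 3.58.1, R 4.3.3) over 6 group means gave moderated tests, with Benjamini-Hochberg adjustment over all genes of each comparison. Pooled comparisons weight populations equally. The fit was tested on simulated data. Alternatives changed the scaling, the treatment of low values, the probe rule, the moderation, array weights, the arrays fitted and a replicate block, and left out each array in turn. The genes named beside the 5 members are every pathway gene called against cardiomyocytes in a single population or in the pooled cardiac comparison, the 4 largest pooled cardiac differences of each list, and the 5 genes most like each member. The members and lists were chosen with earlier results of these data known.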

Additional observations from a re-analysis of the deposited data

How the results depend on the processing

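The differences of the 5 members from cardiomyocytes kept their sign in every alternative run but not their size (Casq2 in SP cells from -4.54 to -0.43, Atp2a2 in SP cells from -3.80 to -0.52); 1 Atp2a2 probe outside them read 0.72 in SP cells. Counts of calls moved. With array medians aligned, heart c-kit cells had 1 member called (3 as reported), SP cells 1 (2), marrow c-kit cells 1 (4) and MSC 2 (4). The pooled cardiac populations had 0 (1), the progenitor pairs 3 (5), and 2 members (5) separated on every array. Of all 17710 genes, 148, 2619, 928, 749 and 0 were called in the same comparisons with cardiomyocytes, and 83 separated. Of the 5 pair calls reported, that setting kept only Sln between Sca1 and marrow c-kit cells (adjusted p = 0.0252 in limma). Its other pair calls were not among the 5. That setting moved the median difference of all genes to 1.34 in SP cells, 0.83 in heart c-kit cells, 0.79 in the pooled cardiac populations, 0.52 in Sca1 cells, 0.46 in MSC and 0.21 in the c-kit cells of the marrow. In the deposited values the counts were 1 for heart c-kit, SP and marrow c-kit cells, 2 for the pairs and 3 for separation. There 223, 829 and 1058 of all genes were called in those populations, and 173 separated. The alternatives for separation were chosen after seeing the data. Fitting only the groups compared gave 0 in heart c-kit, SP and pooled cardiac cells, where 3, 0 and 0 of all genes were called. Array weights gave 1 in SP cells (128 of all genes). Raising values under the 30th percentile gave 1 in Sca1 cells (323 of all genes) and 3 in the pooled comparison (511). The pooled comparison had 3 under trended robust moderation (196 of all genes). It had 2 without the lowest 30% of genes (228 of 12397), and Sln is among the genes left out there.

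Leaving out 1 array gave 1 to 3 calls in heart c-kit cells, 0 to 1 in Sca1 cells, 1 to 3 in SP cells, 1 to 5 in marrow c-kit cells, 3 to 5 in MSC, 0 to 2 in the pooled cardiac comparison, 1 to 2 between cardiac and marrow cells and 2 to 7 over the pairs. Beyond the cardiomyocyte arrays, those that moved a count by over 1.5 times were Sca1 replicate 3 (Sca1 cells to 1, pairs to 2), Sca1 replicate 2 and MSC replicates 1 and 3 (pairs to 3), marrow c-kit replicate 3 and MSC replicate 2 (SP cells to 1), each heart c-kit array (pooled to 2), and Sca1 replicate 1 and SP replicate 2 (cardiac against marrow to 2). The heart c-kit count was 2 without replicate 1 or 3 of marrow c-kit cells, 2 or 3 of MSC, 2 or 3 of heart c-kit cells, or 1 or 2 of Sca1 cells. Over single members, one array left out gave 513 results on the same side of the threshold, 47 that lost it and 16 that gained it; other alternatives gave 255, 41 and 20.

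Replicate numbers are shared by the groups, and nothing in the labels says what a shared number stands for. Over 36 same-numbered pairs of arrays the correlation of deviations was over 0.1 in 4 (median 0.00739, range -0.183 to 0.399). With so few arrays in a group, these correlations cannot decide whether the numbers pair the samples. With the replicate number as a block, SP cells had 1 member called (763 of all genes) and heart c-kit cells 2 (524), Hrc being lost in both. The difference in Sln between Sca1 and SP cells was then not called (adjusted p = 0.0532 in limma).

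Groups of 2 or 3 arrays, dim SP arrays, and Sln spots and MSC Pln spots near the bottom of the scale limit these comparisons.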
